A study of Homo sapiens with 4 samples.

Results

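Small nucleolar RNAs (snoRNAs) that carry the H/ACA or the C/D box were followed in HepG2 and K562 cells after knockdown of ADAR, an RNA editing enzyme that turns adenosines of double-stranded RNA into inosines. A row was taken as a member if its deposited symbol began with SNORA or SNORD and a digit, or, where the symbol was blank, if the GENCODE release 29 name of its Ensembl identifier did. This gave 44 of the 2358 rows of the 2 deposited tables, 24 of 1413 in HepG2 and 20 of 945 in K562, under 40 distinct identifiers. Rows under 2-fold are absent from both tables, so the members describe the snoRNAs that were listed and not the family.

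HepG2 cells derive from a liver carcinoma, and K562 cells from a leukemia with erythroid features. Their defining markers were not checked, and the tables leave out genes that differed by less than 2-fold. In each line, cells stably transfected with a plasmid carrying an siRNA against ADAR1 were compared with the same cells carrying a scrambled siRNA, and no other treatment or allele is named; whether the transfected cells were 1 clone or a pool is not stated in the labels. Total RNA from the 4 groups, 1 sample each with 2 technical replicates, was read as paired ends of 76 bases on an Illumina GAIIx, and the sources used here do not give how RNA was selected for the libraries. With 1 average per group, differences come without a replicate check, an SD or a test; higher and lower are statements about these libraries. The authors' average for ADAR itself was 129 in the knockdown and 461 in the control of HepG2, and 131 against 275 in K562, lower in the knockdown of each line, as labelled.

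Small nucleolar RNAs are short noncoding RNAs that work in the nucleolus as guides for the enzymes that modify ribosomal RNA. H/ACA RNAs, named SNORA, pair with a target on both sides of a uridine and bring the pseudouridine synthase dyskerin to it. C/D RNAs, named SNORD, pair with a target next to their box D and bring the methyltransferase fibrillarin, which adds a methyl group to the ribose. A few, such as the U3 RNA (SNORD3A), act in cleavage of the ribosomal RNA precursor instead. Most human snoRNAs are cut out of introns of a host gene, which is often a ribosomal protein gene or a noncoding gene of the SNHG group, whereas U3 is transcribed from genes of its own.

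The sequences of the members on which the results turn are given 5′ to 3′ from the GENCODE release 29 transcripts on GRCh38. Coordinates are of that build and not of hg19, the build named in the submitters' processing notes. Deposited symbols often differ from the reference name of the identifier, and the reference name is used for the sequences. In H/ACA RNAs the capitals mark the last ACA in the final 8 bases, the box of that name. SNORA8 at chr11:93732361-93732499 on the minus strand, SNORA1 at chr11:93732004-93732133 on the minus strand and SNORA32 at chr11:93730979-93731099 on the minus strand are shown because all lie inside TAF1D and were listed in 1 or both lines.
SNORA8: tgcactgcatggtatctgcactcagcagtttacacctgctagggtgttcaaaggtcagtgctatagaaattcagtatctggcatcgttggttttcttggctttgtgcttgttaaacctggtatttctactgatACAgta
SNORA1: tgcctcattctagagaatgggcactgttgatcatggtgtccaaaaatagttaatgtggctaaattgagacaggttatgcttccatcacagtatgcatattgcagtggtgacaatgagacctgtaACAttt
SNORA32: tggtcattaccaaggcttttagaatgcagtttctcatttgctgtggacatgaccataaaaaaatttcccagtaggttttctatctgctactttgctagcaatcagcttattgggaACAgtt
SNORA8 matched SNORA1 at 53.7% and SNORA32 at 54.8% of aligned columns. SNORA18, a further listed RNA of TAF1D that is not shown, matched SNORA8 at 52%. No pair of RNAs from different hosts was aligned for comparison. SNORA3A at chr11:8684227-8684356 on the plus strand in RPL27A was, with SNORA8, the other H/ACA RNA listed in both lines. SNORA13 at chr5:112161485-112161617 on the plus strand had one of the largest folds in K562, and SNORA33 at chr6:132817219-132817348 on the plus strand had the largest H/ACA fold in HepG2.
SNORA3A: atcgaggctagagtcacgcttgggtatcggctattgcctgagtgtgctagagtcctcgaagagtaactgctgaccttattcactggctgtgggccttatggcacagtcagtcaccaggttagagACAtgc
SNORA13: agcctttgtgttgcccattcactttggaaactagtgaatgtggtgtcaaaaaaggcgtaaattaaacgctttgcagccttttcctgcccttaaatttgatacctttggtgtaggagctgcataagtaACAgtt
SNORA33: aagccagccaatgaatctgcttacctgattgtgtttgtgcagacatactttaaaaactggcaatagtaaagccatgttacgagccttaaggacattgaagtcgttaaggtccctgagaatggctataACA
In C/D RNAs the capitals mark the first NTGATGA, the letters searched for box C, and the last CTGA, those of box D, on the RNA strand. SNORD14C at chr11:123059335-123059422 on the minus strand and SNORD14D at chr11:123058909-123058995 on the minus strand are shown because they share the host HSPA8, the only host gene that was itself listed beside its snoRNAs. Their sequences were identical in 72 of 91 aligned columns, and the last CTGA was not found in SNORD14D.
SNORD14C: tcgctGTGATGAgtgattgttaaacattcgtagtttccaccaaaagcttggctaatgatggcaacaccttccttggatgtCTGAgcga
SNORD14D: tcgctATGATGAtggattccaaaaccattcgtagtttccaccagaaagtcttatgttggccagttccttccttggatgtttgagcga
The U3 RNA SNORD3A at chr17:19188016-19188232 on the plus strand is shown because it stood higher in the knockdown of both lines. The identifier of the U3 row is not in the reference, so its sequence is that of the reference gene with the same symbol. The deposited description of that row names 5 RNAs, so the copy is uncertain and the locus given may not be the one counted.
SNORD3A: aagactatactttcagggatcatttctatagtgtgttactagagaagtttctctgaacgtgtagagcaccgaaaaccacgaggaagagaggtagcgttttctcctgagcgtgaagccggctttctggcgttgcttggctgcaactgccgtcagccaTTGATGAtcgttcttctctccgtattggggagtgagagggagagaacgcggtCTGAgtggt
Across all 147 reference genes named SNORA, 89.8% had an ACA in the last 8 bases, against 14 of the 15 H/ACA members matched by identifier. Of the 278 reference genes named SNORD, 77.3% held NTGATGA and 98.2% held CTGA, against 8 and 9 of the 10 C/D members searched, which were matched by identifier. SNORD87 and a U3-like member that the reference names RF00012 also have identifiers in the reference but were not searched.

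In the HepG2 knockdown 22 of the 24 listed snoRNA rows were lower than in the control and 2 were higher. Of all rows of that table, 45% were lower and 55% were higher. The median log2 fold of the members, taken as the log2 ratio of the averages after adding 1 to each, was -1.51, beside 1.05 over all rows. In the K562 knockdown 19 of the 20 listed rows were higher and 1 was lower, where 38.2% of all rows were higher. The median log2 fold was 1.39 for the K562 members and -1.10 over all rows. Because rows under 2-fold are absent, a median over a mixed list falls near that threshold, on the side with more rows. The medians over all rows therefore restate the counts and are not a typical change. By the counts, the listed snoRNAs went mostly against the balance of their own table in both lines, and in opposite directions in the 2 lines.

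**Figure D1:**
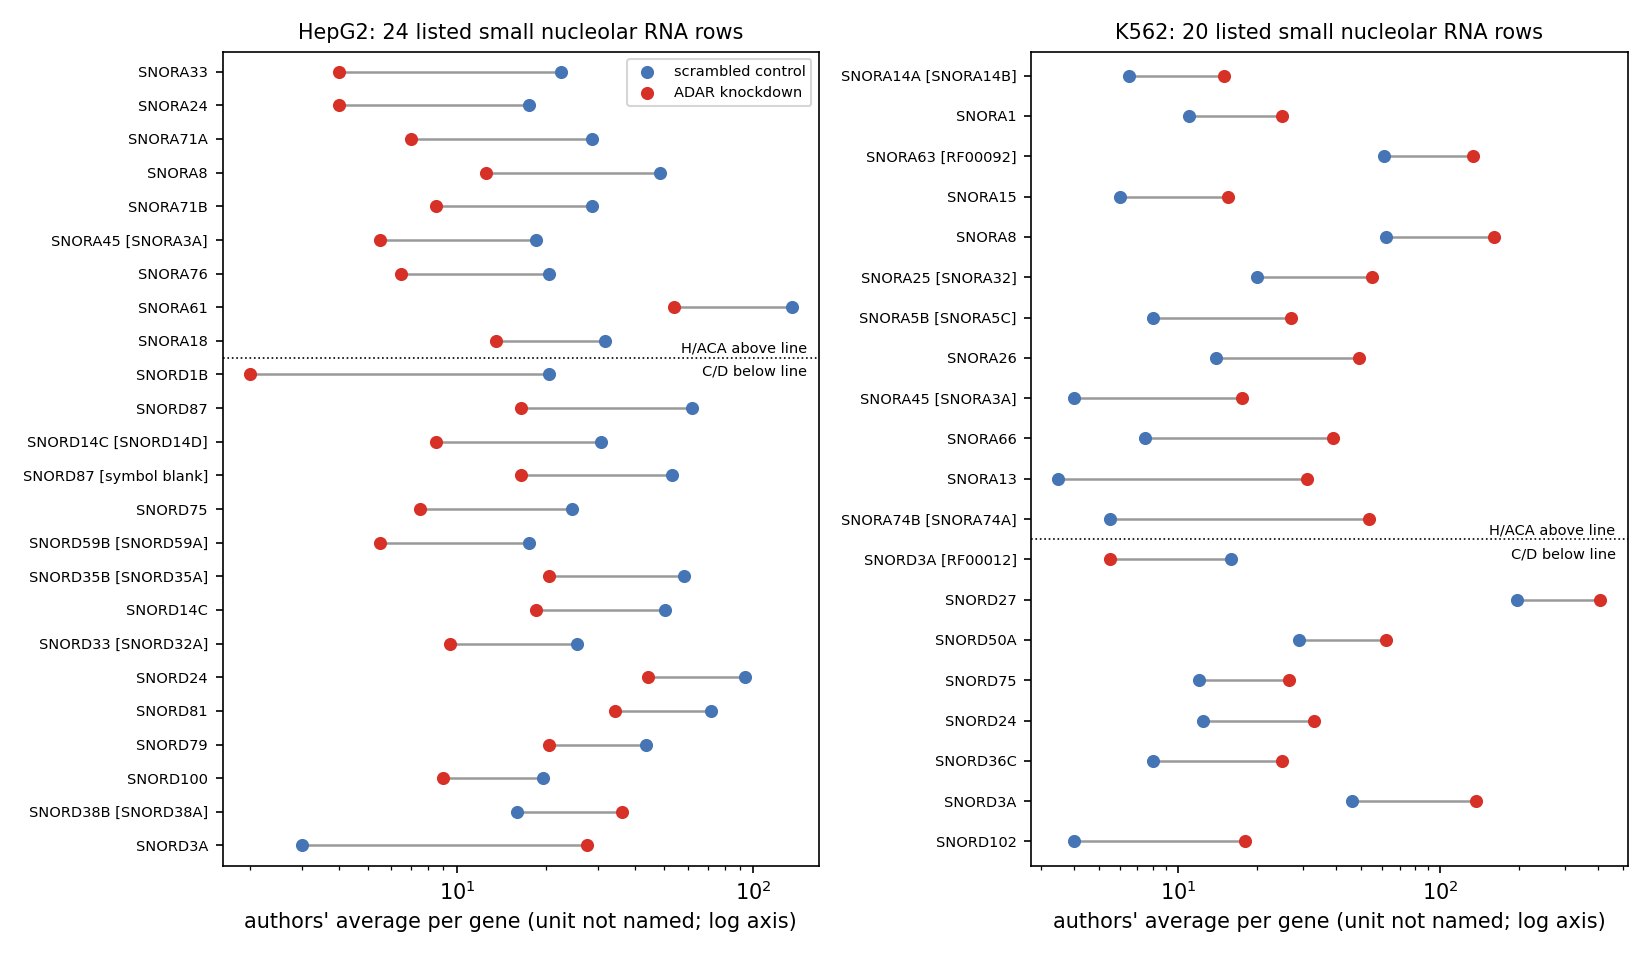
The authors' averages of every listed snoRNA row in the control (blue) and the ADAR knockdown (red) of HepG2 (left, 24 rows) and K562 (right, 20 rows), on a log axis with no error bars because each group has 1 average; names in brackets are the reference names of the identifiers where they differ. In HepG2 the red point lies left of the blue point in 22 rows, and in K562 it lies right of it in 19.

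The summed averages of the members were 940.5 in the control and 391.5 in the knockdown of HepG2, and 533 and 1338 in K562. The larger average of a member ranged from 17.5 to 134.5 in HepG2 and from 15 to 408.5 in K562, with medians of 29.5 and 32. All 44 rows gave whole numbers in both columns when doubled, within a tolerance of 1e-06, which held for 40.6% of all rows in HepG2 and 71.3% in K562. The unit of the averages and any scaling for depth are not stated, so the counting error of these low values cannot be given. Members of low and of higher averages had the same main direction: in HepG2, 11 of 12 members with a larger average under 30 and 11 of 12 at or above it were lower, and in K562, 8 of 9 and 11 of 11 were higher.

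By deposited symbol, and by reference name where it was blank, the H/ACA rows of each line went in 1 direction. All 9 H/ACA rows in HepG2 were lower, with a median log2 fold of -1.63 and folds from 2.24 to 4.70. Of the 12 H/ACA rows in K562, all were higher, with a median of 1.53 and folds from 2.13 to 8.38. A K562 row with a blank symbol, named RF00322 in the reference and so outside the rule, is SNORA31B in a newer gene table, and it was lower, at 24 in the control and 10 in the knockdown. With members taken by newer gene name, 15 of 16 rows in K562 were higher and this H/ACA row was the exception. H/ACA RNAs made up 9 of 24 listed rows in HepG2 and 12 of 20 in K562, while names beginning with SNORA make up 34.6% of the 425 reference genes of both classes.

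Among H/ACA RNAs that guide pseudouridylation of 28S ribosomal RNA, SNORA33 averaged 22.5 in the HepG2 control and 4 in the knockdown. This was 4.70-fold lower, and SNORA33 lies in RPS12, a gene for a small-subunit ribosomal protein. SNORA8 averaged 48.5 against 12.5 and was 3.67-fold lower. SNORA61, an RNA of the noncoding host SNHG12, averaged 134.5 in the control and 54 in the knockdown, 2.46-fold lower. SNORA18 averaged 31.5 against 13.5. Each of these 4 kept between 17.8% and 42.9% of its control average.

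Guides to 18S ribosomal RNA were lower in the same table. SNORA24 averaged 17.5 in the HepG2 control and 4 in the knockdown, 3.70-fold lower. The RNA listed with a blank symbol whose identifier is SNORA71B averaged 28.5 against 8.5, and SNORA76, which RefSeq now names SNORA50C, averaged 20.5 against 6.5. These were 3.11-fold and 2.87-fold lower. A row under the symbol SNORA71A averaged 28.5 against 7 and was 3.69-fold lower, but its deposited description names 6 RNAs, so the copy is uncertain and no target was assigned to it. SNORA71A and SNORA71B belong to 1 family of similar sequence, and these rows may not be separate observations.

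In K562 the largest fold of any member belonged to the row with the symbol SNORA74B, whose identifier is SNORA74A, the U19 RNA that guides a 28S site. It averaged 5.5 in the control and 53.5 in the knockdown, 8.38-fold higher. SNORA13, a guide to 18S ribosomal RNA listed with a blank symbol, averaged 3.5 against 31 and was 7.11-fold higher. SNORA66, another 18S guide and an RNA of RPL5, averaged 7.5 against 39, which was 4.71-fold higher. With SNORA74B and SNORA13 it was 1 of 3 members past 4-fold in K562, all of them H/ACA, where 3.81% of all rows were higher by 4-fold or more. In HepG2, 2 members were lower by 4-fold or more and 1 was higher, beside 8.21% and 8.92% of all rows.

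The other 18S guides among H/ACA rows in K562 were the row with the symbol SNORA5B, at 8 in the control and 27 in the knockdown, and that with the symbol SNORA14A, at 6.5 and 15. Their identifiers are SNORA5C and SNORA14B in the reference. SNORA1, a 28S guide, averaged 11 against 25. Among H/ACA rows to which no target was assigned here, SNORA26 averaged 14 against 49, 3.33-fold higher. SNORA15 averaged 6 against 15.5. The row with the symbol SNORA63 averaged 61 against 133.5; its identifier, RF00092 in the reference and SNORA63B in a newer gene table, lies in EIF4A2, a translation initiation factor gene.

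C/D rows went mostly the same way as H/ACA rows. In HepG2, 13 of 15 C/D rows were lower, with a median log2 fold of -1.40 over the 15, and in K562, 7 of 8 were higher, with a median of 1.21. The folds of the lower HepG2 rows ran from 2.05 to 7.17 and those of the higher K562 rows from 2.07 to 3.8.

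Among C/D RNAs that guide methylation of 28S ribosomal RNA, the row with the symbol SNORD1B averaged 20.5 in the HepG2 control and 2 in the knockdown. This was 7.17-fold lower, the largest fold of a lower member in HepG2, and the knockdown kept 9.76% of the control average. Its description names both SNORD1A and SNORD1B, which share the host SNHG16. SNORD87 was listed under 2 identifiers, at 62 against 16.5 and at 53 against 16.5. Only the second is in the reference, and the near-equal values may come from the same reads, which was not tested. The row with the symbol SNORD24 averaged 93.5 against 44; its description names SNORD76 and SNORD24, which have different hosts, so the copy is uncertain.

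SNORD100, SNORD59A and the SNORD14 pair, all listed in HepG2, guide 18S ribosomal RNA. SNORD100 averaged 19.5 in the HepG2 control and 9 in the knockdown, at 2.05-fold the smallest difference of any HepG2 member and the one closest to the 2-fold threshold of the table. The row with the symbol SNORD59B, SNORD59A by identifier, averaged 17.5 against 5.5. The SNORD14 RNAs, known as U14, guide an 18S site and also act in cleavage of the precursor. SNORD14D averaged 30.5 in the control and 8.5 in the knockdown, 3.32-fold lower, and SNORD14C averaged 50.5 against 18.5, 2.64-fold lower.

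In K562 the 28S guide SNORD102 averaged 4 in the control and 18 in the knockdown, 3.8-fold higher. SNORD50A, whose description also names SNORD50B, averaged 29 against 62. SNORD27, an 18S guide of the noncoding host SNHG1, averaged 196.5 in the control and 408.5 in the knockdown, which was 2.07-fold higher and the member nearest the threshold in this line. Grouped by the RNA that is guided, lower rows made up 7 of 7 for 18S and 12 of 13 for 28S in HepG2, and higher rows made up 5 of 5 for 18S and 8 of 8 for 28S in K562. The row with the symbol SNORD33, which is SNORD32A by identifier and guides sites in both, was also lower in HepG2. Guides to the small and the large subunit RNA thus had the same main direction within each line. Since 22 of 24 members in HepG2 were lower and 19 of 20 in K562 were higher, this is largely given by those shares.

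Among the members, the 3 rows that went against the majority of their line were C/D RNAs. The U3 row SNORD3A averaged 3 in the HepG2 control and 27.5 in the knockdown, 7.13-fold higher. The same identifier averaged 46 against 137.5 in K562, 2.95-fold higher, so U3 was the one member listed as higher in both lines. SNORD38A, a 28S guide listed under the symbol SNORD38B, averaged 16 against 36 in HepG2, 2.18-fold higher. A second row with the symbol SNORD3A was the only lower member in K562, at 16 in the control and 5.5 in the knockdown. Its identifier is a separate U3-like locus that the reference names RF00012, and U3 copies share sequence, so how reads were divided between the copies is uncertain.

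Under the same identifier, 4 snoRNAs were listed in both lines, 16.7% of those in HepG2 and 20% of those in K562. SNORA8 averaged 48.5 in the control and 12.5 in the knockdown of HepG2, and 62 in the control and 161 in the knockdown of K562. Its fold was 3.67 downward in HepG2 and 2.57 upward in K562. The row SNORA45, SNORA3A by identifier, averaged 18.5 against 5.5 in HepG2 and 4 against 17.5 in K562, 3-fold lower and 3.70-fold higher. SNORD75, a 28S guide of the noncoding host GAS5, averaged 24.5 against 7.5 in HepG2 and 12 against 26.5 in K562, 3-fold lower and 2.12-fold higher. For all 3 the direction was opposite in the 2 lines, and U3 was the exception. Of the 92 identifiers of any kind listed in both tables, 63 went in opposite directions and 29 in the same one, so 3 of 4 is close to the share over all rows.

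**Figure D2:**
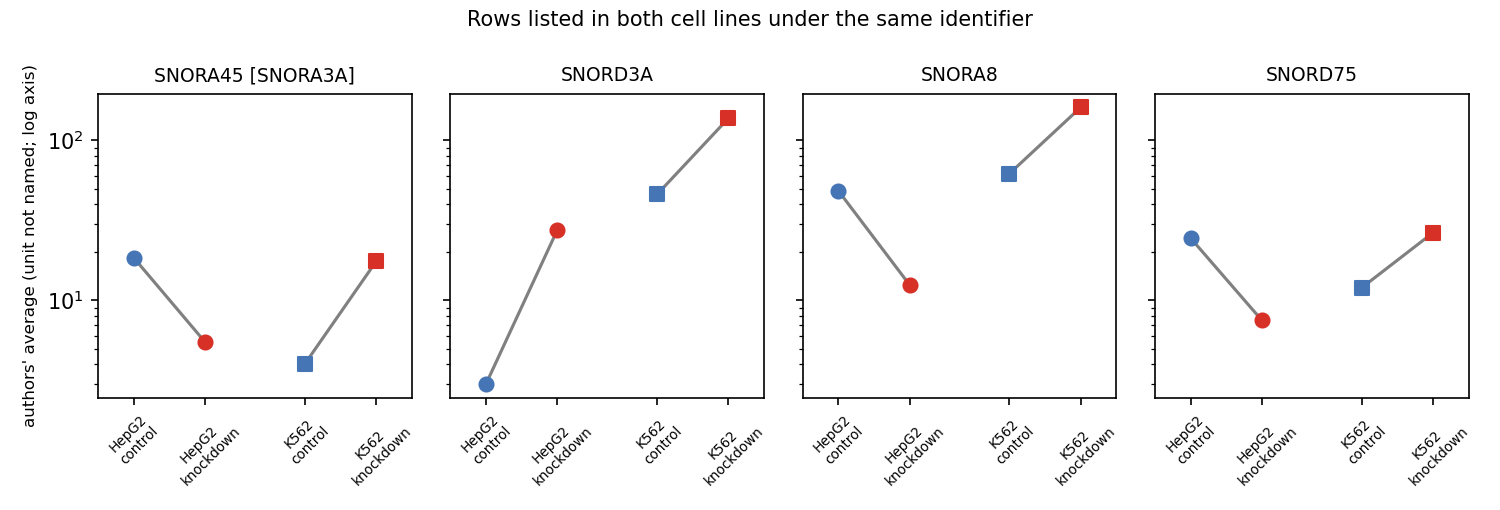
The authors' averages, on a shared log axis, of the 4 snoRNAs listed in both lines, with circles for HepG2, squares for K562, blue for the control and red for the ADAR knockdown; each point is 1 average with no error. The line between the points slopes down in HepG2 and up in K562 for SNORA45, SNORA8 and SNORD75, and up in both for SNORD3A.

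A host gene was found for 20 of 24 rows in HepG2 and for 18 of 20 in K562. The HepG2 rows fell in 13 hosts and the K562 rows in 16, counting both MATR3 and SNHG4 for SNORA74A, where the genes overlap. Where a host held more than 1 listed row, all its rows went in 1 direction: this was so for 6 of 6 such hosts in HepG2 and 2 of 2 in K562. Among them, SNHG6 held only SNORD87, listed under 2 identifiers. Since 22 of 24 members in HepG2 were lower and 19 of 20 in K562 were higher, such agreement within hosts is largely given by those shares. TAF1D, which encodes a subunit of the selectivity factor of RNA polymerase I, holds 8 snoRNAs in the reference. SNORA8 and SNORA18 were listed as lower in HepG2, and SNORA8, SNORA1 and SNORA32 were listed as higher in K562. The SNORA32 row, deposited under the symbol SNORA25, averaged 20 in the K562 control and 55 in the knockdown, 2.67-fold higher.

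GAS5, a noncoding gene named for its rise in growth-arrested cells, held 3 listed rows in HepG2. Beside SNORD75, SNORD81 averaged 72 in the control and 34 in the knockdown, and SNORD79 averaged 43.5 against 20.5. Both guide 28S sites, and both were just past 2-fold, at 2.09 and 2.07. In RPL13A, a large-subunit ribosomal protein gene, SNORD35A averaged 58.5 in the HepG2 control and 20.5 in the knockdown, and SNORD32A averaged 25.5 against 9.5. RPS12 held SNORA33 and SNORD100, an H/ACA and a C/D RNA, which were both lower. In K562, RPL7A held SNORD24, at 12.5 against 33, and SNORD36C, at 8 against 25, both 28S guides.

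TAF1D, RPL27A and GAS5 had listed rows in both lines. Of these, 6 of 6 rows in HepG2 were lower and 5 of 5 in K562 were higher. By kind of host, 5 of 6 HepG2 rows in ribosomal protein genes, 9 of 9 in noncoding genes and 5 of 5 in other protein-coding genes were lower. In K562 the rows in these 3 kinds numbered 5, 6 and 7, and all were higher. The main direction was therefore shared by hosts of every kind, with 1 hosted row in HepG2 against it. This too is largely given by the shares over all members.

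**Figure D3:**
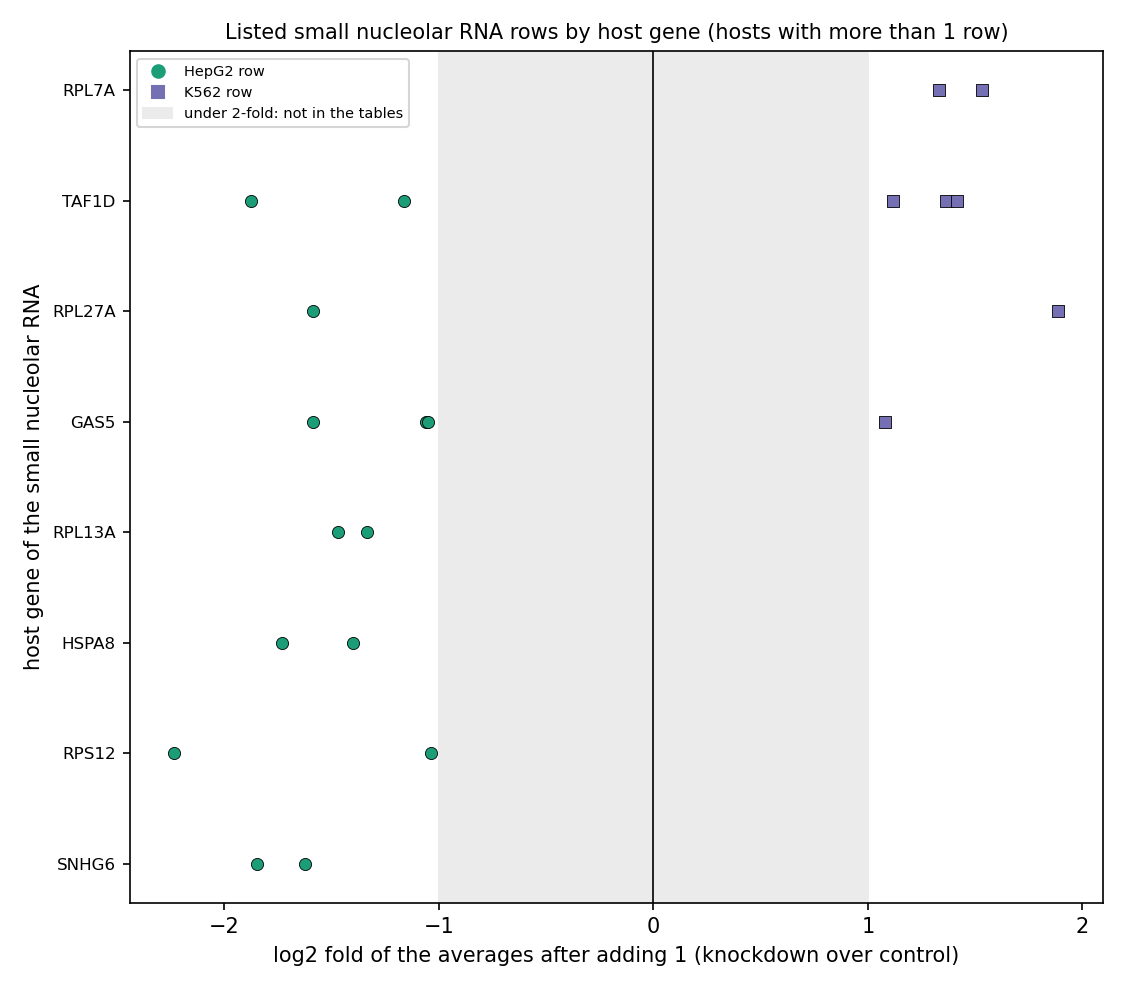
Log2 fold of each listed snoRNA row (horizontal axis, knockdown over control after adding 1 to each average) by the gene that hosts it (vertical axis), for hosts with more than 1 listed row over both lines, with circles for HepG2 and squares for K562; the grey band from -1 to 1 is under the threshold of the tables. Rows of TAF1D, RPL27A and GAS5 lie left of the band in HepG2 and right of it in K562, and no drawn host has rows on both sides within 1 line.

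Host genes themselves were rarely listed. HSPA8, the constitutive HSP70 chaperone and host of the SNORD14 pair, averaged 4382 in the HepG2 control and 1166 in the knockdown, 3.75-fold lower, in the same direction as its snoRNAs. It was the 1 host of 13 listed in HepG2, and none of 16 was listed in K562. Of all SNHG genes and GAS5, 1 was listed in K562, as higher, and none in HepG2. That gene was not among the hosts found for the members. DANCR, the host of SNORA26, was listed in HepG2 alone, at 497.75 in the control and 202.25 in the knockdown, while SNORA26 was listed in K562 alone, as higher. That the other hosts were not listed says only that they did not meet the selection. The use of strand and the counting of intronic reads are not stated, so reads of a snoRNA and of the intron around it cannot be told apart. Without the SNORD14 pair, 20 of 22 HepG2 rows were lower.

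The proteins that act with snoRNAs were not listed. Of 52 symbols, among them the C/D core proteins FBL, NOP56 and NOP58, the H/ACA core proteins DKC1, NHP2, NOP10 and GAR1, assembly factors such as NAF1, SHQ1 and RUVBL1, and U3 partners such as MPHOSPH10, IMP3 and IMP4, none was listed in either table. The list includes older symbols of the same genes. This does not show that their levels were alike, since a gene under 2-fold or under a floor is also not listed.

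Other short structured RNAs went both ways, with more rows higher than lower in each line. This was the main direction of the snoRNAs in K562 but not in HepG2. Of 6 such rows in HepG2, 4 were higher, beside 55% of all rows, among them RNU4-2, at 40 in the control and 114 in the knockdown. RMRP, the RNA of a ribonuclease that cuts the ribosomal RNA precursor, averaged 57 in the control and 23.5 in the knockdown. RN7SK, an RNA that holds back a transcription elongation factor, averaged 31 against 12, and SCARNA9, a guide RNA of the Cajal body, averaged 17.5 against 37. Of 10 such rows in K562, 7 were higher, beside 38.2% of all rows, among them SCARNA9L, at 14 against 30.5, and VTRNA1-3, a vault RNA, at 9 against 20. RNU2-2, also higher, had the largest fold of these rows, 6.83, at 2 against 19.5. RN7SL1 was among the 3 lower rows, at 21.5 against 8. Several rows in both directions carry names of pseudogene copies, such as RN7SL75P (higher) and RN7SL244P (lower) in K562, as does RN7SKP70 (higher) in HepG2.

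Other kinds of gene in the same tables had mixed directions. In HepG2, 44.5% of 901 protein-coding rows and 48.9% of 182 processed pseudogenes were lower. In K562, 29.3% of 410 protein-coding rows and 54.3% of 234 processed pseudogenes were higher. Against these, 91.7% of the snoRNA rows in HepG2 were lower and 95% of those in K562 were higher. The snoRNAs are also short. Among members with identifiers in the reference, C/D RNAs measured 70 to 89 bases in HepG2 and 66 to 216 in K562. The H/ACA RNAs measured 130 to 272 and 121 to 198 bases. Reads were of 76 bases and the RNA selection is not given. Whether recovery of such short RNAs differed between the libraries was not tested.

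**Figure D4:**
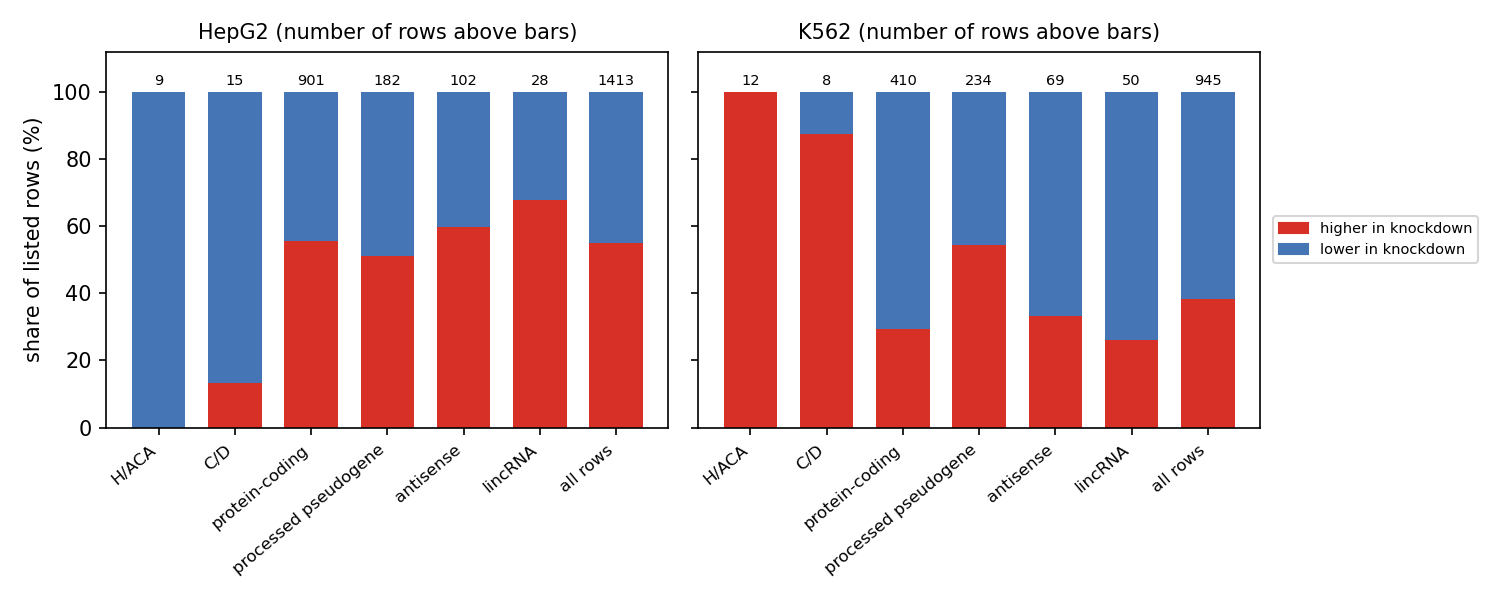
Share of listed rows (vertical axis, percent) that were higher (red) or lower (blue) in the ADAR knockdown, by kind of RNA, in HepG2 (left) and K562 (right), with the number of rows above each bar. All H/ACA members are lower in HepG2 and higher in K562, whereas 45% of all HepG2 rows are lower and 38.2% of all K562 rows are higher. The lower SNORA31B row of K562 lies outside the membership rule and is not in the H/ACA bar.

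The scaling between the libraries of a line could not be checked, and it bears on these counts. With the knockdown averages multiplied by 1.5 in HepG2, 13 of the 22 lower members stayed past 2-fold, and 243 of the 636 lower rows of the whole table did. With the knockdown averages divided by 1.5 in K562, 7 of the 19 higher members stayed, and 82 of the 361 higher rows of the whole table did. Rows under 2-fold as deposited cannot enter either count.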

How the data were processed

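RNA from HepG2 and K562 cells with an ADAR knockdown or a scrambled control, 1 sample per group, was sequenced, per the labels. The submitters' processing notes name TopHat, SAMtools and hg19 but no versions; the sources used here do not give the counting tool or annotation. The authors deposited an average per gene and group, treated as a signal because its unit is not named, for rows past 2-fold only. The deposited log2 value was the log2 ratio of the averages, each plus 1. A signed fold, also deposited and read as a score, gave that ratio too. The depth is unknown.

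Members and lists were chosen with earlier results of these data known. Folds were recomputed with a pseudocount of 1; nothing was tested, because each group had 1 sample. Of the member identifiers, 13 of 24 in HepG2 and 16 of 20 in K562 were in GENCODE release 29, and 6 and 7 of these carried another reference name than the deposited symbol. Hosts were same-strand genes containing the identifier's locus, or, for 7 and 3 rows with other identifiers, genes containing the locus of the same symbol in GENCODE or RefSeq (GRCh38.p14, which gives no strand). The guided RNA was assigned from textbook knowledge. Rows given in full were those listed in both lines, those against the majority and the 8 largest folds per line; further rows were named after their values were seen. Alternatives were 3-fold and 4-fold thresholds, filters on low averages, pseudocounts of 0.1 and 5, 1 row per symbol, membership by reference name, scaling of the knockdown by 1.5, and no listed hosts; membership by newer names, 1 value per host and reference identifiers alone were added after seeing the data. Python 3.11.15, numpy 2.4.6, pandas 2.3.3 and matplotlib 3.10.9 were used. Some items are not reported here.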

Additional observations from a re-analysis of the deposited data

Results flagged for a closer look

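The 3 snoRNAs below were flagged because the knockdown and the control differed in opposite directions in the 2 lines. This trait is not particular to them, since 63 of the 92 identifiers of any kind listed in both lines shared it. Each line had 1 sample per group, and the difference between the lines was not tested. The log2 fold of SNORA45 (SNORA3A by identifier) was -1.58 in HepG2 and 1.89 in K562, a difference of 3.47 on the log2 scale. SNORA8 had log2 folds of -1.87 and 1.36, a difference of 3.24. SNORD75 had log2 folds of -1.58 and 1.08, a difference of 2.67. With the K562 knockdown averages divided by 1.5, the K562 log2 folds of SNORA8 and SNORD75 were 0.78 and 0.52, under 2-fold, and that of SNORD75 was 0.89 with a pseudocount of 5.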

How the results depend on the processing

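No alternative run turned the direction of a value, but most of these runs could not have done so. Pseudocounts and scaling by 1.5 cannot turn the direction of a row past 2-fold. Thresholds and filters only remove rows from lists that go mostly 1 way, so the lack of turned directions says little about stability. Of 50 alternative values for the counts and medians over all members, 30 stayed within 1.5 times the count or within 0.1 of the median log2 fold, and the other 20 follow. Of 80 alternative values for the medians of each class and for single rows, 48 moved by more than 0.1, and among them the K562 median was 1.42 for H/ACA and 1.53 for C/D rows by newer gene name. In HepG2, where 22 rows were lower, 11 were lower at 3-fold or more, 2 at 4-fold or more, 7 where the larger average reached the median of the table, 13 by reference name alone, 13 by newer gene name alone and 12 with identifiers in the reference alone, since fewer rows enter. The HepG2 median of -1.51 was -1.40 where the larger average reached that median, -1.65 with a pseudocount of 0.1 and -1.24 with a pseudocount of 5. In K562, where 19 rows were higher, 7 were higher at 3-fold or more, 3 at 4-fold or more and 10 where the larger average reached the median of the table. The K562 median of 1.39 was 1.23 with a pseudocount of 5 and 1.58 by reference name alone. With the knockdown averages multiplied by 1.5, 13 rows were lower past 2-fold in HepG2 and the medians were -1 and 1.97 in HepG2 and K562. Divided by 1.5, 7 rows were higher past 2-fold in K562 and the medians were -2.02 and 0.81. No paired analysis was possible because each line had 1 sample per group, and leaving out a replicate could not be run. The depth is unknown, and with it the counting error of averages as low as 2.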

Other observations

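A pair of rows outside the rule carry snoRNA identifiers. In HepG2 the row with the symbol C6ORF48 has the identifier of SNORD52 and averaged 32 in the control and 11 in the knockdown, 2.75-fold lower. In K562 the SNORA31B row was 2.27-fold lower.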
